A study of Mus musculus with 71 samples.

Results

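The muscle miRNAs miR-206, miR-1 and miR-133 were followed through small RNA libraries of mouse brain. They were taken by name as 4 of the 1927 mature miRNA rows in the deposited tables: mmu-miR-206-3p, mmu-miR-1a-3p, mmu-miR-133a-5p and a joined row, mmu-miR-133a-3p/miR-133b-3p, whose reads cannot be split between its 2 miRNAs. Of the 1927 rows, 1085 had a count in at least 1 library. All mice were male. DYT1KI mice carry a knock-in dystonia mutation of torsinA, the protein encoded by Tor1a, and WT mice were their wild-type comparison. Crush means that the right sciatic nerve had been crushed for 1 minute under isoflurane at 12 weeks of age, and naive means that it had not. The labels mention no sham operation. They put all tissue at 12 weeks after injury, the naive mice included. The groups were DYT1KI crush, DYT1KI naive, WT crush and WT naive, each with 6 mice, and each mouse gave right cerebellum, left striatum and left cortex. The exception was the cerebellum of WT crush mice with 5 libraries, which made 71 libraries of 24 numbered mice in all. Libraries are named below by group and replicate number, as the labels give it. A number stands for the same mouse in the 3 tissues of a group, except in WT crush, where replicates 1 to 5 of cerebellum are the mice of replicates 2 to 6 in the other tissues.

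Cerebellum libraries held 8199033 to 12582875 counts, striatum libraries 6161668 to 10219295 and cortex libraries 5182284 to 10064827. Levels are given as CPM, counts scaled to the library total, after TMM scaling over all 71 libraries. A count of 3, taken as the limit of what could be detected, stood for up to 0.366 CPM in cerebellum, 0.487 CPM in striatum and 0.579 CPM in cortex, which covers counting error only. The tissue labels were checked against marker miRNAs. The hindbrain list (miR-10a-5p, miR-10b-5p and the miR-183 cluster) summed to 196 to 1309 CPM in cerebellum, 9.05 to 37.4 CPM in striatum and 12.5 to 56.8 CPM in cortex. The striatal marker miR-187-3p lay at 397 to 809 CPM in cerebellum, 4028 to 5793 CPM in striatum and 98.8 to 717 CPM in cortex. In a few libraries these markers stood apart. Cortex of DYT1KI crush replicate 1 was highest of the cortices in miR-187-3p. Cortex of DYT1KI crush replicate 6, DYT1KI naive replicate 1 and WT crush replicate 2 held 1030, 1505 and 497 CPM of the miRNAs hosted by Htr2c, against at most 62.7 CPM in the other cortices. Cerebellum of DYT1KI crush replicate 6 and of WT crush replicate 4 was lowest in the hindbrain list, at 196 and 358 CPM. The called differences within cortex and within cerebellum are also given without these libraries. The differences of miR-206-3p between tissues in DYT1KI crush mice, and its averaged injury and genotype differences in cortex, are also given without cortex of DYT1KI crush replicate 1.

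miR-1, miR-206 and the miR-133 family are known as myomiRs, miRNAs enriched in striated muscle that act in muscle differentiation and growth. Their genes lie in pairs, miR-1 with miR-133a and miR-206 with miR-133b, and the members of a pair are described as coming from a common primary transcript. miR-1 and miR-206 share a seed, the bases that choose target mRNAs, whereas miR-133 has a seed of its own. miR-206 is also known for its part in the repair of nerve-muscle synapses after nerve injury, and miR-133b has been described in midbrain dopaminergic neurons.

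The mature arms of the miR-206/miR-133b pair for which RefSeq (GRCm38.p6) gave a sequence are written 5′ to 3′ with bases 2 to 8, the seed, in capitals. miR-206-3p is shown because its regional differences were the largest of the tested muscle miRNAs. miR-133b-3p is shown because it is one of the miRNAs of the joined row, with another seed.

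miR-206-3p: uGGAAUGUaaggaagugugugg

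miR-133b-3p: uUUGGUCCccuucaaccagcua

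miR-206-3p lies at chr1:20679055-20679076 and miR-133b-3p at chr1:20682834-20682855, both on the plus strand of GRCm38.p6, and both are 22 bases long. Of 5 arms looked up, 2 had a sequence in the table. The 2 hairpins are separated by 3686 bases. Both overlap the long non-coding RNA gene Gm28653 (chr1:20669882-20684298, plus strand) in the GENCODE M21 annotation of GRCm38. The Mir133b hairpin (20682769 to 20682887) falls wholly within exons of 2 of its transcripts. The Mir206 hairpin (20679010 to 20679082) overlaps the last exon of one of them, transcript Gm28653-201, with 60 of its 73 bases.

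miR-206-3p was a cerebellar miRNA in these libraries, intermediate in striatum and low in cortex. Over all groups its range was 1967 to 6135 CPM in cerebellum (median 3089), 134 to 333 CPM in striatum (median 216) and 11.4 to 81.6 CPM in cortex (median 16.4). The ranges of the 3 tissues did not overlap. For how many of all miRNAs this holds was not counted. By total count it was miRNA number 39 in cerebellum, number 114 in striatum and number 251 in cortex. It took 0.252% of the counts in cerebellum, 0.0256% in striatum and 0.00209% in cortex.

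**Figure D1:**
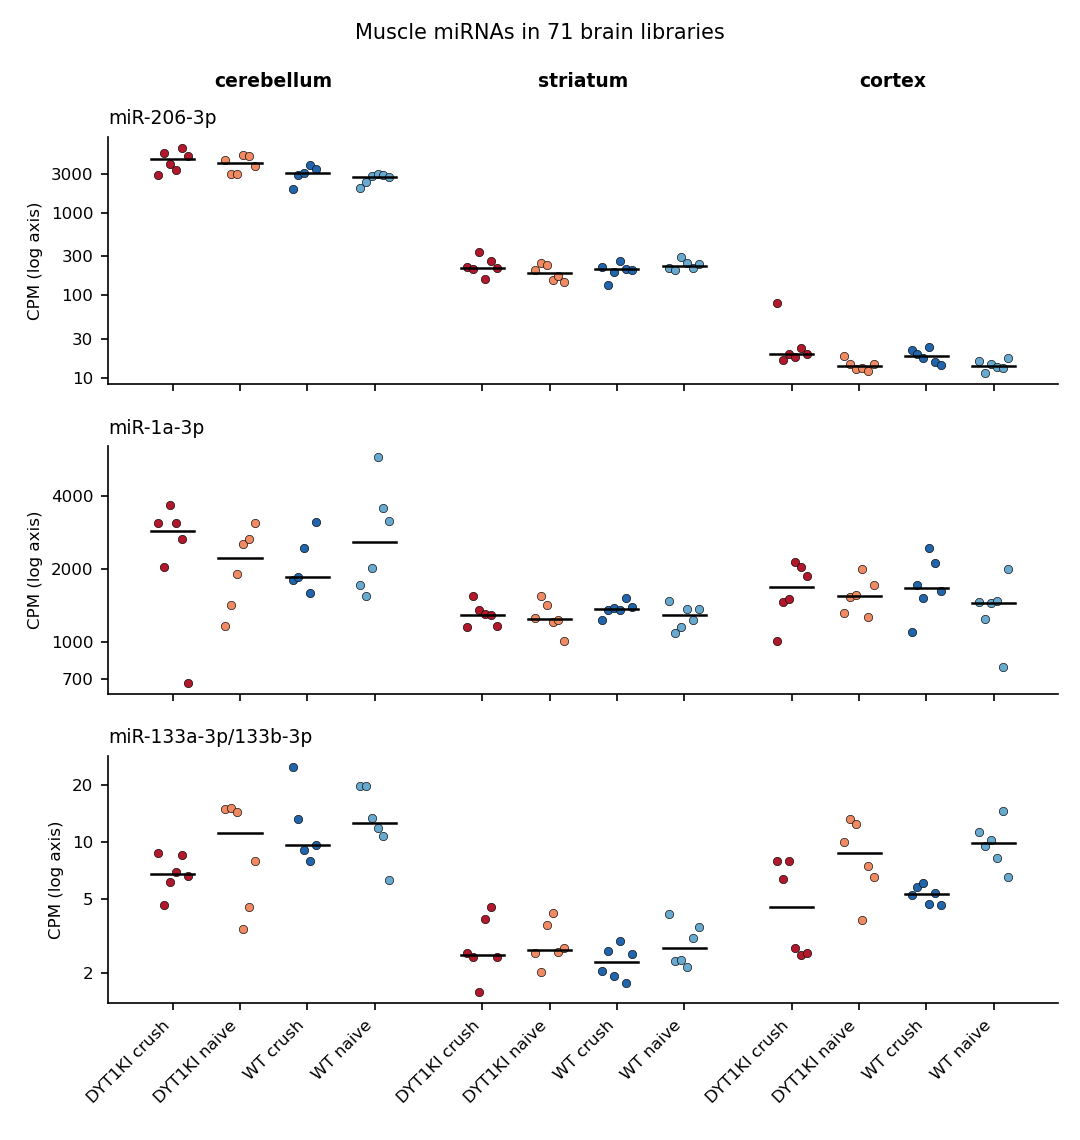
Levels of miR-206-3p, miR-1a-3p and miR-133a-3p/miR-133b-3p in CPM on a log axis, in the 12 groups of tissue, genotype and treatment. Dots are libraries and lines are group medians; miR-206-3p separates the 3 tissues without overlap (medians 3089, 216 and 16.4 CPM), whereas miR-1a-3p lies between 680 and 5764 CPM over all 3.

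The order of the tissues was the same in every genotype and treatment. Each condition was fitted over its 3 tissues with edgeR's quasi-likelihood test, and a miRNA was called between tissues at an adjusted p under 0.05 and a log2 difference of at least 1. Cerebellum exceeded cortex by 7.10 ± 0.44 log2 units (estimate ± SE) in DYT1KI crush, 8.11 ± 0.22 in DYT1KI naive, 7.19 ± 0.23 in WT crush and 7.33 ± 0.16 in WT naive mice. Striatum exceeded cortex by 2.98 ± 0.37, 3.82 ± 0.18, 3.41 ± 0.19 and 3.98 ± 0.14 in the same order of conditions. Without cortex of DYT1KI crush replicate 1, the DYT1KI crush differences were 7.74 ± 0.27 for cerebellum against cortex and 3.63 ± 0.22 for striatum against cortex, both called. Cerebellum exceeded striatum by 4.12 ± 0.38, 4.30 ± 0.18, 3.78 ± 0.20 and 3.35 ± 0.14. All 12 differences of miR-206-3p were called, with edgeR adjusted p-values from 4.15e-18 to 2.20e-06. Calls between tissues were common: in DYT1KI crush, DYT1KI naive, WT crush and WT naive mice, 40.6%, 40.1%, 36.9% and 44.2% of the miRNAs tested were called between cerebellum and cortex. Between striatum and cortex the shares were 17.9%, 20.5%, 17.4% and 27.7%, and between cerebellum and striatum 42.9%, 42.9%, 39.8% and 41.8%. Cerebellar RNA was isolated with another kit (miRNeasy mini) than striatal and cortical RNA (miRNeasy micro) and came from the right instead of the left side, so tissue, kit and side cannot be told apart for the cerebellum. In such bulk samples, fewer cells of a type and less RNA per cell cannot be told apart either.

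miR-1a-3p, which shares its seed with miR-206-3p, was spread far more evenly. In cerebellum it ran from 680 to 3661 CPM in DYT1KI crush (median 2876), from 1168 to 3104 in DYT1KI naive (median 2226) and from 1550 to 5764 in WT naive mice (median 2590). WT crush cerebella (replicates 1 to 5) had 1806, 1859, 2439, 1585 and 3109 CPM. Its lowest cerebellar value, 680 CPM, was that of DYT1KI crush replicate 6, and the highest, 5764 CPM, that of WT naive replicate 4, so that the cerebellum covered an 8.48-fold range in which all 4 groups overlapped.

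In striatum, miR-1a-3p kept within a 1.54-fold range over all 24 libraries. It ran from 1148 to 1543 CPM in DYT1KI crush (median 1296), from 1008 to 1548 in DYT1KI naive (median 1245), from 1233 to 1522 in WT crush (median 1365) and from 1089 to 1477 in WT naive mice (median 1297). In cortex the ranges were 1011 to 2142 CPM (median 1682), 1264 to 2006 (median 1550), 1094 to 2437 (median 1667) and 788 to 2004 (median 1451) in the same order. The 4 groups overlapped in both tissues. Between tissues, 1 of the 12 differences of miR-1a-3p was called: WT naive cerebellum exceeded WT naive striatum by 1.09 ± 0.27 log2 units (edgeR adjusted p = 0.00137). Without cerebellum of WT naive replicate 4 this was 0.87, under the fold required, and it was 0.99 ± 0.24 with the animal as a block (adjusted p = 0.00217). The level in WT naive cerebellum also differed with the replicate number. Replicates 1 to 3 had 1550 to 2015 CPM and replicates 4 to 6 had 3165 to 5764 CPM, without overlap. In WT naive striatum the same replicates had 1089 to 1477 and 1228 to 1370 CPM. Cerebellum also lay above striatum by 0.85, 0.64 and 0.55 in DYT1KI crush, DYT1KI naive and WT crush mice, with adjusted p under the threshold but a difference under 1. In DYT1KI crush mice it passed 1 without striatum of replicate 2 (1.02) or cerebellum of replicate 6 (1.05). WT naive cerebellum lay 0.91 ± 0.27 above WT naive cortex, and past 1 without cortex of replicate 4 or 6 (1.01 and 1.10) or cerebellum of replicate 1, 2 or 3 (1.11, 1.12 and 1.10).

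miR-133a-3p/miR-133b-3p, the joined row whose reads cannot be split between miR-133a-3p and miR-133b-3p, was scarce everywhere. Its cerebellar levels were 4.62 to 8.76 CPM in DYT1KI crush (median 6.73), 3.44 to 15.1 in DYT1KI naive (median 11.2) and 6.29 to 19.8 in WT naive mice (median 12.6). WT crush cerebella (replicates 1 to 5) had 25.0, 13.3, 9.07, 7.92 and 9.61 CPM. All 5 of these WT crush values lay inside or above the range of the DYT1KI crush libraries, and WT crush replicate 1 was highest of all 71.

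Striatum had the least miR-133a-3p/miR-133b-3p, at 1.59 to 4.48 CPM in DYT1KI crush (median 2.51), 2.04 to 4.21 in DYT1KI naive (median 2.67), 1.77 to 2.99 in WT crush (median 2.31) and 2.17 to 4.12 in WT naive mice (median 2.72). These groups overlapped throughout. Cerebellum exceeded striatum in all 4 conditions, by 1.12 ± 0.35 log2 units in DYT1KI crush (edgeR adjusted p = 0.0080), 1.68 ± 0.38 in DYT1KI naive, 2.39 ± 0.28 in WT crush and 2.11 ± 0.29 in WT naive mice. The DYT1KI crush difference was 0.998 without striatum of replicate 3, under the fold required. Striatum was lower than cortex, with differences of -1.51 ± 0.38, -1.22 ± 0.27 and -1.83 ± 0.29 in DYT1KI naive, WT crush and WT naive mice, which were called, and of -0.77 ± 0.35 in DYT1KI crush mice, which was not (adjusted p = 0.0949) unless striatum of replicate 4 was left out (-1.04, adjusted p = 0.0310). Cerebellum and cortex differed by a called 1.17 ± 0.26 in WT crush mice, which was 0.89 without cerebellum of replicate 1, and by 0.36 ± 0.34, 0.17 ± 0.37 and 0.27 ± 0.27, not called, in DYT1KI crush, DYT1KI naive and WT naive mice. Within a tissue, each group of miR-1a-3p and of miR-133a-3p/miR-133b-3p overlapped with its neighbour in the order of levels.

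miR-133a-5p, the other arm of miR-133a, was at the limit of counting. It reached at most 3 counts in a library and was present in 3 cerebella, all WT crush, with 9 counts in all, in no striatum, and in 4 cortices with 11 counts. It could not be tested in any fit. The other arm of miR-133b, miR-133b-5p, was at 0 in every striatum and cortex, which allows up to 0.487 CPM and 0.579 CPM there. In cerebellum it had 0 to 10 counts and was present in 5 of 6 DYT1KI crush libraries (15 counts), all 6 DYT1KI naive libraries (29 counts), 4 of 5 WT crush libraries (19 counts) and 1 of 6 WT naive libraries (4 counts).

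The injury comparison asks how crush mice differed from naive mice 12 weeks later. In cortex, on the side opposite the injured nerve, miR-206-3p rose and miR-133a-3p/miR-133b-3p fell with injury averaged over the genotypes. miR-206-3p ran from 16.6 to 81.6 CPM in DYT1KI crush (median 19.5), against 12.2 to 18.2 in DYT1KI naive mice (median 14.0), and from 14.4 to 23.6 in WT crush (median 18.4), against 11.4 to 17.6 in WT naive mice (median 14.1). All 12 crush libraries lay above the naive mean of their genotype, but the crush and naive ranges overlapped in both genotypes. The lowest WT crush library did so barely, at 14.40 CPM against a WT naive mean of 14.39 CPM. The averaged difference was 0.68 ± 0.21 log2 units, 1.61-fold (edgeR adjusted p = 0.0218). miR-133a-3p/miR-133b-3p went the other way, with 2.52 to 7.92 CPM in DYT1KI crush (median 4.53), against 3.84 to 13.2 in DYT1KI naive mice (median 8.71), and 4.64 to 6.08 in WT crush (median 5.28), against 6.52 to 14.6 in WT naive mice (median 9.84). All 12 crush libraries lay below the naive mean of their genotype, the WT groups did not overlap and the DYT1KI groups did. How many of all miRNAs in cortex show such positions or such a separation was not counted. The averaged difference was -0.91 ± 0.22, 0.534-fold (adjusted p = 0.0138), and rested on 19 to 126 counts per library. miR-1a-3p differed by 0.19 ± 0.15 (adjusted p = 0.327), and by 0.33 ± 0.14 without DYT1KI crush replicate 1 (adjusted p = 0.0653). Across cortex, 30.9% of the 530 miRNAs tested were called for injury, 58 higher (10.9%) and 106 lower (20%), so that 2 called of the 3 tested muscle miRNAs stand against a background of many calls. Under upper-quartile scaling the median difference of all miRNAs was 0.08 instead of -0.03, and 101 were called higher and 66 lower, while both muscle miRNAs kept their directions.

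**Figure D2:**
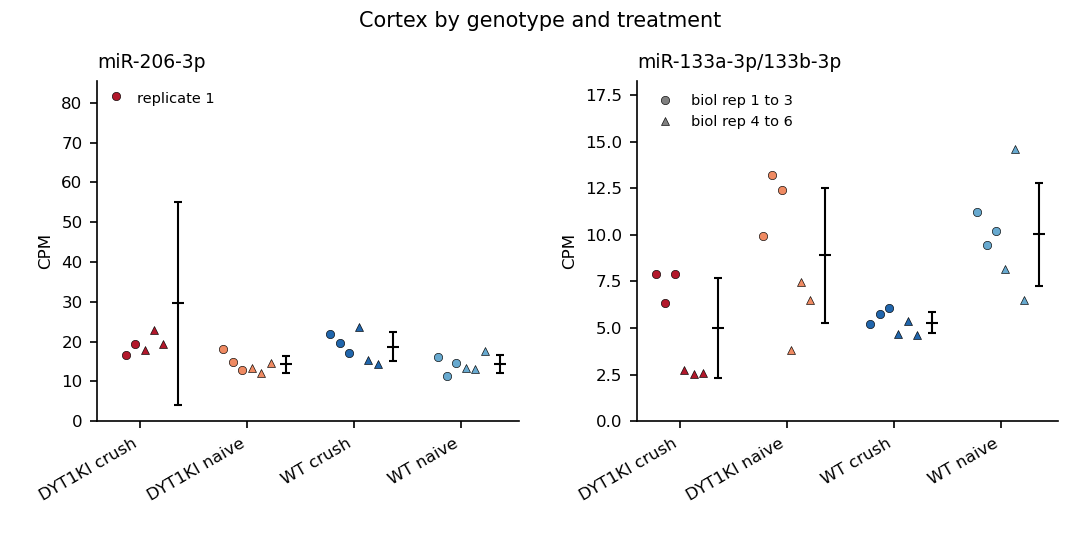
Levels in CPM of miR-206-3p and miR-133a-3p/miR-133b-3p in each cortex library, by group, with mean ± SD as bars. Circles are replicates 1 to 3 and triangles 4 to 6; DYT1KI crush replicate 1 stands at 81.6 CPM of miR-206-3p, and the WT crush libraries of miR-133a-3p/miR-133b-3p (4.64 to 6.08 CPM) lie below all WT naive libraries (6.52 to 14.6 CPM).

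How far the cortical calls rest on single libraries differed between the 2 miRNAs. The miR-206-3p difference was 0.47 ± 0.11 without DYT1KI crush replicate 1 (edgeR adjusted p = 0.0111) and 0.71 ± 0.24 without DYT1KI naive replicate 3 (adjusted p = 0.0517), where the call was lost. The labels number the replicates 1 to 6 in every group. Within replicates 1 to 3, miR-206-3p differed by 1.04 ± 0.37 (adjusted p = 0.0508), and within replicates 4 to 6 by 0.42 ± 0.14 (adjusted p = 0.0504), in the same direction but past the threshold in neither. The miR-133a-3p/miR-133b-3p difference was -0.64 ± 0.13 within replicates 1 to 3 (adjusted p = 0.00195) and -1.12 ± 0.23 within 4 to 6 (adjusted p = 0.00692), and it stayed called without any single library. In DYT1KI crush cortex, replicates 1 to 3 had 6.32 to 7.92 CPM of miR-133a-3p/miR-133b-3p and replicates 4 to 6 had 2.52 to 2.74, so the level differed with the replicate number as well. Without the 4 cortices high in striatal or Htr2c-hosted miRNAs (DYT1KI crush replicates 1 and 6, DYT1KI naive replicate 1, WT crush replicate 2), the differences were 0.42 ± 0.12 for miR-206-3p (adjusted p = 0.0562) and -0.91 ± 0.25 for miR-133a-3p/miR-133b-3p (adjusted p = 0.0540), and edgeR called 0 of 533 miRNAs (203 had an unadjusted p under 0.05).

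Marker lists are given for these cortical groups as medians. In each list below, the ranges of crush and naive mice overlapped in both genotypes. The vessel list (miR-143, miR-145a and miR-126a arms, 5 of 5 counted) had medians of 31097 CPM in DYT1KI crush, 25829 in DYT1KI naive, 31881 in WT crush and 25632 in WT naive mice. The cortex list (miR-132-3p and miR-212-3p) had medians of 904, 1154, 941 and 1533 CPM in the same order. The striated muscle list outside the myomiRs tested (miR-208a-3p, miR-208b-3p and miR-499-5p) had medians of 28.01, 32.0, 33.5 and 31.6 CPM, with 1 or 2 of its 3 miRNAs at 0 in each library. The list of neuronal miRNAs had medians of 117847, 126070, 130275 and 123959 CPM, lower in crush than in naive DYT1KI mice and higher in WT mice. The part of any of these lists in the injury differences was not tested.

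Cortex of DYT1KI crush replicate 1 carried more miR-206-3p than any other cortex. It had 81.6 CPM from 577 counts, against 11.4 to 23.6 CPM in the other 23 cortices, while striatum of the same mouse had 222 CPM and its cerebellum 2926, both inside the range of their tissues. The same cortex had 717 CPM of miR-187-3p, which ran from 98.8 to 204 CPM in the other cortices and from 4028 to 5793 in striatum. It also had 45.3 CPM of miR-449a-5p, against 6.77 to 14.2 in the other cortices and 165 to 234 in striatum. Its summed striatal list (miR-187-3p and miR-138-5p, neither at 0) was 18331 CPM, inside the 12717 to 22236 CPM of the cortices, and the Htr2c-hosted miRNAs were at 26.6 CPM. Whether striatal tissue contributed to this library was not tested. Without it, the difference between DYT1KI crush and DYT1KI naive cortex was 0.53 ± 0.16 (edgeR adjusted p = 0.0993), against 1.06 ± 0.30 with it (adjusted p = 0.0978), and the interaction of genotype and injury was 0.13 ± 0.22, against 0.75 ± 0.42 with it (adjusted p = 0.840).

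**Figure D3:**
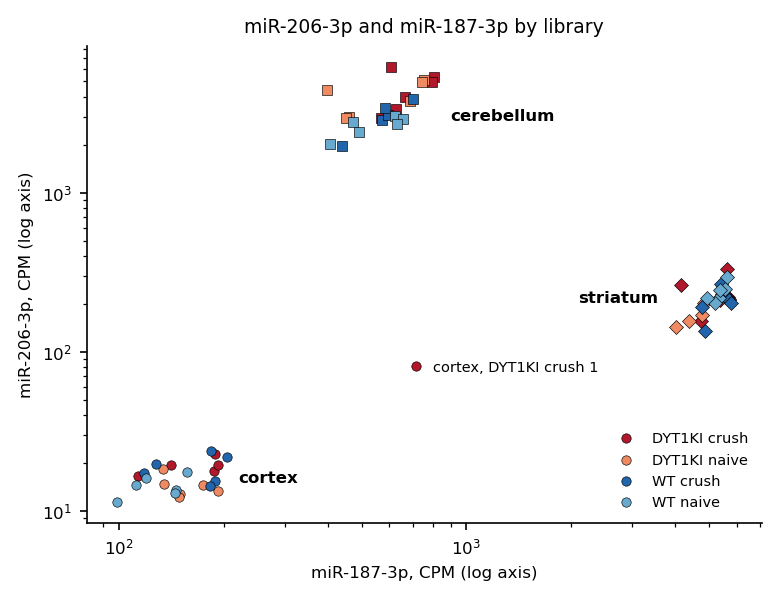
Level of miR-206-3p against that of the striatal marker miR-187-3p in each library, both in CPM on log axes, with symbols by tissue and colours by group. Cortex of DYT1KI crush replicate 1 lies between the other cortices and the striata in both miRNAs, at 81.6 CPM of miR-206-3p and 717 CPM of miR-187-3p.

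The genotype comparison asks how DYT1KI mice differed from WT mice. In cerebellum miR-206-3p was higher in DYT1KI mice. It ran from 2926 to 6135 CPM in DYT1KI crush mice (median 4458), whereas WT crush cerebella (replicates 1 to 5) had 1967, 2861, 3089, 3857 and 3394 CPM. It ran from 2953 to 5108 in DYT1KI naive mice (median 4069), against 2021 to 3010 in WT naive mice (median 2741). In 11 of 12 DYT1KI cerebella miR-206-3p lay above the WT mean of the same treatment, and the ranges overlapped in both treatments, in naive mice only between 2953 and 3010 CPM. The share of all miRNAs with such positions was not counted. The difference averaged over treatments was 0.60 ± 0.14 log2 units, 1.52-fold (edgeR adjusted p = 0.0267). miR-206-3p had the fourth smallest p of 555 miRNAs, of which 5.05% were called, 20 higher (3.6%) and 8 lower (1.44%), or 15 and 10 under upper-quartile scaling. miR-133a-3p/miR-133b-3p differed by -0.67 ± 0.26 (adjusted p = 0.107) and miR-1a-3p by -0.11 ± 0.25 (adjusted p = 0.790), neither called.

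**Figure D4:**
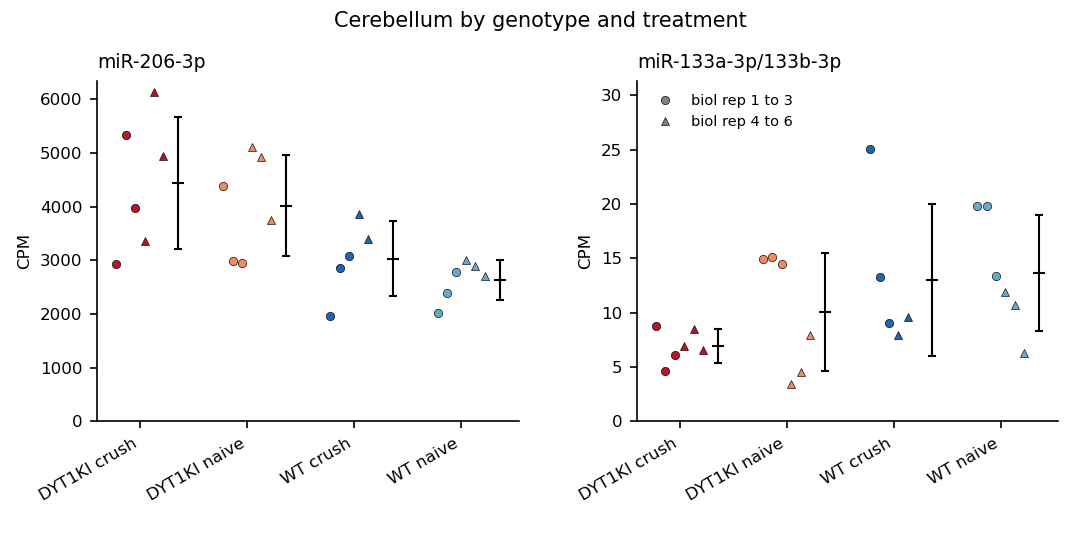
Levels in CPM of miR-206-3p and miR-133a-3p/miR-133b-3p in each cerebellum library, by group, with mean ± SD as bars. miR-206-3p averaged 4444 and 4019 CPM in DYT1KI crush and naive mice and 3034 and 2632 CPM in WT crush and naive mice; circles are replicates 1 to 3 and triangles 4 to 6.

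The cerebellar difference of miR-206-3p kept its size better than its call. It was 0.58 ± 0.17 within replicates 1 to 3 (edgeR adjusted p = 0.104) and 0.46 ± 0.14 within replicates 4 to 6 (adjusted p = 0.181), called in neither. WT crush mice enter these ranges by their cerebellar number, which is shifted against the other tissues. Leaving out 1 library ended the call for WT crush replicate 2 (0.58, adjusted p = 0.0634), DYT1KI naive replicates 4 and 5 (0.53 and 0.54, adjusted p = 0.0952 and 0.0886) and DYT1KI crush replicates 2 and 5 (0.56 and 0.51, adjusted p = 0.0778 and 0.0879). Without DYT1KI crush replicate 6 and WT crush replicate 4, which were lowest in the hindbrain list, it was 0.60 (adjusted p = 0.0233). The hindbrain list had medians of 872 CPM in DYT1KI crush, 695 in DYT1KI naive, 801 in WT crush and 760 in WT naive mice. The striated muscle list had medians of 39.4, 40.1, 39.3 and 51.0 CPM in that order. The part of either list in the genotype difference was not tested.

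In the 2 treatments taken apart, DYT1KI exceeded WT cerebellum in miR-206-3p by 0.55 ± 0.20 in crush mice (edgeR adjusted p = 0.162) and by 0.65 ± 0.19 in naive mice (adjusted p = 0.331). miR-133a-3p/miR-133b-3p differed by -0.93 ± 0.37 in crush mice (adjusted p = 0.175) and -0.40 ± 0.35 in naive mice (adjusted p = 0.735). None of these passed. Within replicates, miR-133a-3p/miR-133b-3p averaged over treatments differed by -0.78 ± 0.26 in 1 to 3 (adjusted p = 0.105) and -0.63 ± 0.24 in 4 to 6 (adjusted p = 0.242). In DYT1KI naive cerebella, replicates 1 to 3 had 14.5 to 15.1 CPM of this row and replicates 4 to 6 had 3.44 to 7.90 CPM, without overlap.

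**Figure D5:**
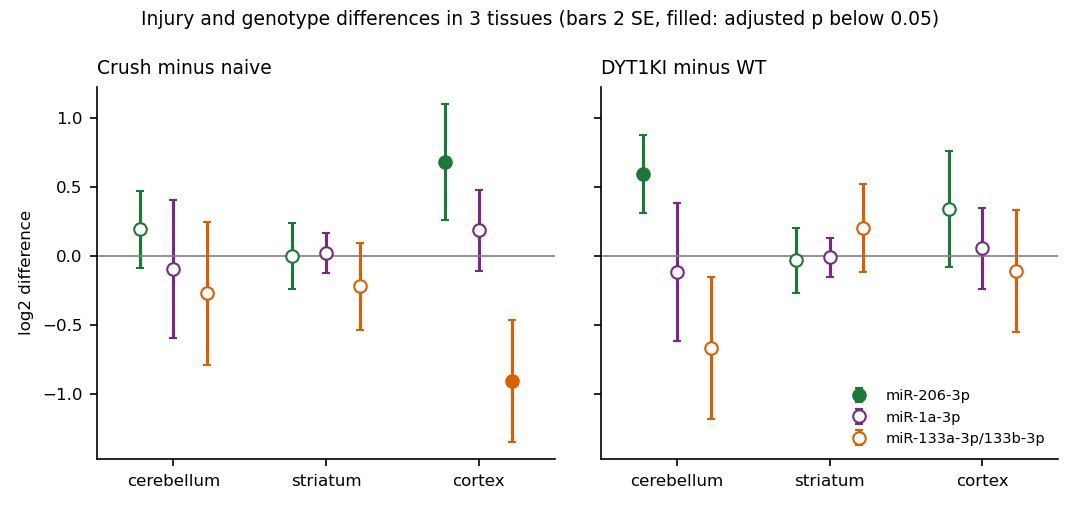
Log2 differences of the 3 tested muscle miRNAs for injury averaged over genotypes and for genotype averaged over treatments, in cerebellum, striatum and cortex. Bars are 2 SE and filled points have an adjusted p under 0.05; the filled points are cortex injury for miR-206-3p (0.68) and miR-133a-3p/miR-133b-3p (-0.91) and cerebellum genotype for miR-206-3p (0.60).

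Elsewhere the averaged effects did not pass. In cerebellum, injury differed by 0.20 ± 0.14 for miR-206-3p, -0.10 ± 0.25 for miR-1a-3p and -0.27 ± 0.26 for miR-133a-3p/miR-133b-3p, and edgeR called 0 of 555 miRNAs and DESeq2 called 0, while 41 had an unadjusted edgeR p under 0.05. In cortex, genotype differed by 0.34 ± 0.21, 0.06 ± 0.15 and -0.11 ± 0.22 in the same order of miRNAs, and edgeR and DESeq2 each called 0 of 530, while 14 had an unadjusted edgeR p under 0.05. Without DYT1KI crush replicate 1, genotype in cortex differed by 0.0040 ± 0.11 for miR-206-3p, 0.10 ± 0.14 for miR-1a-3p and -0.25 ± 0.20 for miR-133a-3p/miR-133b-3p.

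Striatum showed the smallest spread and no called effect. miR-206-3p ran from 156.6 to 333 CPM in DYT1KI crush (median 218), against 144 to 245 in DYT1KI naive mice (median 187), and from 134 to 265 in WT crush (median 207), against 202 to 294 in WT naive mice (median 230). The medians stood higher in crush than in naive mice in DYT1KI and lower in WT, and the ranges overlapped in both. Averaged over genotypes, injury differed by 0.0022 ± 0.12 for miR-206-3p, 0.02 ± 0.07 for miR-1a-3p and -0.22 ± 0.16 for miR-133a-3p/miR-133b-3p. Genotype differed by -0.03 ± 0.12, -0.0076 ± 0.07 and 0.21 ± 0.16. edgeR called 0 of 547 miRNAs in either comparison (54 for injury and 53 for genotype at an unadjusted p under 0.05), and DESeq2 called 1 for injury and 0 for genotype. The interaction for miR-206-3p was 0.45 ± 0.24 (edgeR adjusted p = 0.872).

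The pairwise comparisons and the interactions gave no edgeR call when fitted without a replicate term. Over 4 pairwise comparisons and the interaction, edgeR called 0 of 15 tests of the muscle miRNAs in each tissue, against 0% of all miRNAs tested in each of these comparisons, with 3 at an unadjusted p under 0.05 in cerebellum, 0 in striatum and 4 in cortex, and DESeq2 called 0, 0 and 2. The largest in cortex were DYT1KI crush against naive, at 1.06 ± 0.30 for miR-206-3p and -0.82 ± 0.31 for miR-133a-3p/miR-133b-3p (adjusted p = 0.115), and WT crush against naive, at -0.99 ± 0.31 for miR-133a-3p/miR-133b-3p (adjusted p = 0.0643). miR-206-3p differed by 0.31 ± 0.30 in WT crush against naive cortex (adjusted p = 0.462). Between DYT1KI crush and naive cortex, miR-206-3p passed the edgeR threshold without DYT1KI crush replicate 3 (1.28, adjusted p = 0.0224) or DYT1KI naive replicate 4 (1.07, adjusted p = 0.0354), and miR-133a-3p/miR-133b-3p without the same naive library (-0.95, adjusted p = 0.0386). Deviations of same-numbered libraries of these 2 groups correlated, but libraries of different numbers were not compared. Whether the number pairs them is therefore not shown. With the replicate number as a block both were called, miR-206-3p at 0.88 ± 0.24 (edgeR adjusted p = 0.0283) and miR-133a-3p/miR-133b-3p at -0.84 ± 0.24 (adjusted p = 0.0302). That fit called 119 of the 530 miRNAs, or 22.5%.

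In the authors' deposited table of DESeq2 results, which pairs the same groups, 2 of the 36 values listed for these miRNAs had an adjusted p under 0.05. Of all miRNAs with an adjusted p there, 5.42% were under 0.05 between DYT1KI crush and naive cortex, 8.19% between WT crush and naive cortex and 0% in the other 10 comparisons. The 2 values were miR-206-3p in DYT1KI crush against naive cortex, at 0.86 ± 0.25 (adjusted p = 0.0273), and miR-133a-3p/miR-133b-3p in WT crush against naive cortex, at -0.77 ± 0.26 (adjusted p = 0.0436). For miR-206-3p in cerebellum, the authors' deposited table gave 0.46 ± 0.18 for DYT1KI against WT crush (adjusted p = 0.0942) and 0.56 ± 0.17 for the naive mice (adjusted p = 0.0960).

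The effects of the 3 tissues were set against each other in a limma fit over all 71 libraries, in which the tissues of a mouse were allowed to correlate. No difference of a muscle miRNA passed. The genotype effect on miR-206-3p was 0.56 ± 0.19 larger in cerebellum than in striatum (limma adjusted p = 0.128) and 0.32 ± 0.22 larger than in cortex (adjusted p = 0.443). The injury effect on miR-206-3p was 0.50 ± 0.23 larger in cortex than in striatum (adjusted p = 0.179), and that on miR-133a-3p/miR-133b-3p was -0.71 ± 0.35 relative to striatum (adjusted p = 0.195). Without cortex of DYT1KI crush replicate 1, the miR-206-3p values were 0.56 ± 0.16 (adjusted p = 0.0730), 0.49 ± 0.20 (adjusted p = 0.162) and 0.32 ± 0.20 (adjusted p = 0.302) in that order, and none passed. Of 629 miRNAs, 1.75% were called for the injury effect of cortex minus striatum and 0.159% for the genotype effect of cerebellum minus striatum, and 0.318% for that of cerebellum minus cortex. The calls above therefore do not show that the effects were confined to a tissue.

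Other muscle miRNAs were listed as 15 rows, of which 3 to 5 could be tested in a fit. None was called for injury, genotype or their interaction in a tissue by edgeR. Between tissues, both arms of miR-486, a miRNA of muscle and red blood cells, were called higher in cerebellum than in striatum and in cortex in all 4 conditions. miR-499-5p, which lies within a myosin heavy chain gene, was called higher in cerebellum than in striatum and lower in striatum than in cortex in all 4, by 2.02 ± 0.15 and -1.50 ± 0.15 in WT naive mice. miR-208b-3p, of another myosin gene, was called higher in striatum than in cortex in WT crush mice, by 2.17 ± 0.65. This was the only condition in which it could be tested between tissues. Over all conditions it was scarce, with 3 to 22 counts in striatum and a count in 10 of 24 cortices. The passenger arm miR-206-5p had 2 counts in 1 cerebellum and 0 elsewhere.

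Ratios of counts within a library do not depend on the scaling between libraries, and were compared between libraries with 0.5 added to each count. The log2 ratio of miR-206-3p to miR-1a-3p had a median of 0.47 in cerebellum, -2.63 in striatum and -6.65 in cortex. That of miR-206-3p to miR-133a-3p/miR-133b-3p had medians of 8.40, 6.35 and 1.40. This second ratio averaged 2.46 ± 0.90 (SD) in DYT1KI crush cortex (2.28 ± 0.88 without replicate 1), against 0.79 ± 0.64 in DYT1KI naive cortex, and 1.80 ± 0.33 in WT crush cortex, against 0.55 ± 0.53 in WT naive cortex. In cerebellum it averaged 9.30 ± 0.60 in DYT1KI crush, against 7.96 ± 1.02 in WT crush mice (n = 5), and 8.82 ± 1.23 in DYT1KI naive, against 7.67 ± 0.77 in WT naive mice. The injury difference of this ratio in cortex and its genotype difference in cerebellum had the same sign. That sign follows from the differences of the single miRNAs given above, so it is a description and no further result.

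The 3 tested muscle miRNAs varied differently from library to library within a tissue. After subtracting group means, Pearson's r of log2 CPM between miR-206-3p and miR-133a-3p/miR-133b-3p was -0.65 in 23 cerebella, -0.34 in 24 striata and 0.27 in 24 cortices. Between miR-206-3p and miR-1a-3p it was 0.06, 0.32 and -0.30, and between miR-1a-3p and miR-133a-3p/miR-133b-3p it was -0.38, 0.02 and -0.64. These libraries share depth, scaling and, across tissues, animals, so the values are descriptions. Differences with the replicate number were not subtracted. In cerebellum, replicates 1 to 3 and 4 to 6 averaged 3141 and 4005 CPM of miR-206-3p, and 13.7 and 7.66 CPM of miR-133a-3p/miR-133b-3p. In cortex they averaged 1405 and 1790 CPM of miR-1a-3p, and 8.81 and 5.81 CPM of miR-133a-3p/miR-133b-3p. The part of the replicate number in these r values was not tested.

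The miRNAs most like each of them were named by the same measure. Over the 12 group means, which mostly reflect tissue, miR-206-3p was closest to miR-467c-5p (r = 0.995), miR-467e-5p (0.993), miR-466h-5p (0.992), miR-467d-5p (0.990) and miR-448-3p (0.984). Within cerebellum it was closest to miR-125a-3p (0.956), let-7e-5p/7k (0.936) and let-7b-5p (0.924), within striatum to miR-382-5p (0.868), miR-30c-2-3p (0.857) and let-7e-5p/7k (0.852), and within cortex to miR-449a-5p (0.900), miR-187-3p (0.798) and miR-193a-5p (0.699). Cortex of DYT1KI crush replicate 1 was high in miR-449a-5p and miR-187-3p. Over the group means, miR-1a-3p was closest to miR-100-5p (0.963) and miR-133a-3p/miR-133b-3p to miR-874-3p (0.964). Within cerebellum and cortex, miR-1a-3p was closest to miR-335-5p (0.875 and 0.913), within striatum to miR-93-5p (0.781). miR-126a-3p, an endothelial miRNA, was second to it in striatum (0.673) and in cortex (0.891). miR-133a-3p/miR-133b-3p was closest to miR-350-3p (0.891) in cerebellum, miR-30c-5p (0.750) in striatum and miR-344-3p (0.957) in cortex.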

How the data were processed

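The authors deposited 12 DESeq2 tables, 4 per tissue. Their count columns are whole raw counts of each mature miRNA, per the file headers, and agree exactly within a tissue. The authors' normalized columns are a signal, each count over the library's size factor. The deposited tables also give a log2 fold change with its standard error, a Wald statistic (a score) and a p-value with its adjusted form, used only where the authors' deposited table is named. Software included R 4.1.0 and featureCounts 1.6.4, per the submitters' processing notes, with no role given. Aligner, build, annotation and handling of molecular identifiers were not given in the sources used here. No count in the tables equals 1.

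RNA came from miRNeasy mini (cerebellum) or micro kits, and 500 ng went into QIAseq miRNA UDI libraries, per the labels' protocols. All tests used the counts. The quasi-likelihood test of edgeR 4.0.16 (R 4.3.3, robust, TMM, filterByExpr with minimum count 10 and total 15) was fitted to the 4 groups of each tissue, and to the 3 tissues of each condition. Adjustment was by Benjamini-Hochberg over all miRNAs tested, with 0.05 as threshold. Effects were compared between tissues with limma 3.58.1 (voom, 629 miRNAs, correlation 0.095 between tissues of a mouse). Log2 CPM had a prior count of 2. Alternatives were DESeq2 1.42.0, other scalings, no filter, each library left out, and replicate terms. The edgeR steps were tested on simulated data, and the limma fit was not.

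Library names carry a mouse number that is shared by the tissues of a group, so tissues are paired by animal, and blocking on it changed 1 call. Replicates of a group were taken as separate mice. Within a tissue, replicate numbers are not explained by the labels. Deviations of same-numbered libraries correlated above 0.1 in every pair for 3 pairs of groups. These were DYT1KI crush and naive cortex (0.140 to 0.699), DYT1KI and WT naive cortex (0.309 to 0.664) and DYT1KI and WT naive cerebellum (0.194 to 0.415). Libraries of different numbers were not compared, so the number is not shown to pair the mice. The main fits had no replicate term, and the replicate number was a block only in an alternative. Named miRNAs were, by rule, the 4 rows, other muscle miRNAs from a list, the 5 nearest to each row over group means and the 3 nearest within each tissue (only the nearest is given for some), with markers as levels. The rows and lists were chosen with earlier results of these data known. Mature sequences came from a RefSeq table of GRCm38.p6 and the host gene from GENCODE M21.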

Additional observations from a re-analysis of the deposited data

Results flagged for a closer look

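Of 40 group values examined, 3 had a highest library far from the other 5 of its group, where chance gives about 1 in 20. miR-206-3p in cortex of DYT1KI crush replicate 1 was 81.6 CPM, the next highest of the group being 22.9 CPM. The gap took 0.902 of the range of the group, against a critical value of 0.625. The report gives its striatal markers and the results without it.

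miR-133a-5p reached 0.304 CPM in cortex of DYT1KI crush replicate 3 and 0.309 CPM in cortex of WT naive replicate 1, each from 3 counts, and was at 0 in the other libraries of both groups. In no comparison did all samples of 1 group move against all samples of another between tissues or genotypes.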

How the results depend on the processing

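Of 1917 alternative values for 87 differences of the muscle miRNAs, 1819 kept their direction and their side of the threshold, 52 changed direction, and 61 of the 87 kept both throughout. The 87 are the averaged and between-tissue differences with a selected part of the pairwise and interaction differences. Of the 1819 values, 1362 came from leaving out a single library, and many of the differences were uncalled from the start. The analyses within replicates 1 to 3 or 4 to 6, and those without the libraries singled out by markers, were chosen after seeing the data. Depth limits miR-133a-3p/miR-133b-3p and leaves miR-133a-5p untested. The cause of these shifts was not tested.

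Over all pairs of groups, same-numbered libraries correlated above 0.1 in 20 of 33 pairs in cerebellum, 5 of 36 in striatum and 31 of 36 in cortex, and in every pair only for the 3 pairs of groups named in the methods. Of the comparisons between those groups, the replicate block changed the calls between DYT1KI crush and naive cortex and no other call of a muscle miRNA. Within a tissue, libraries of different groups are known to share only a number, in those groups too. In WT crush cerebellum that number is shifted against the other tissues. With a replicate block, miR-206-3p differed by 0.59 with genotype in cerebellum (adjusted p = 0.0104), by 0.60 with injury in cortex (adjusted p = 0.00681) and by -0.0018 with injury in striatum, and miR-133a-3p/miR-133b-3p by -0.97 between WT crush and naive cortex (adjusted p = 0.00497).

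Directions that changed among the 87 differences were all of uncalled ones. With replicates 1 to 3 alone these were genotype in cerebellum for miR-1a-3p (0.14), genotype in striatum for miR-206-3p, miR-1a-3p and miR-133a-3p/miR-133b-3p (0.26, 0.16 and -0.0078), genotype in cortex for miR-1a-3p and miR-133a-3p/miR-133b-3p (-0.037 and 0.27), injury in striatum for miR-206-3p and miR-1a-3p (-0.13 and -0.025), and, in cerebellum, injury for miR-1a-3p (0.59, and 0.23 in WT alone). Injury in cerebellum was also 0.042 for miR-1a-3p with the replicate range as a term, 0.037 without the 2 cerebella lowest in hindbrain miRNAs, and 0.16 for miR-133a-3p/miR-133b-3p in replicates 4 to 6. Genotype in cortex was -0.013 for miR-206-3p without the 4 marker libraries.

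Calls lost were injury in cortex for miR-206-3p (1.04 in replicates 1 to 3, 0.42 in 4 to 6, 0.42 without the 4 libraries) and miR-133a-3p/miR-133b-3p (-0.91 without them), genotype in cerebellum for miR-206-3p (0.56 with no filter, 0.58 and 0.46 in the ranges) and WT naive cerebellum against striatum for miR-1a-3p (0.99 with the animal block). Calls gained were cerebellum against striatum for miR-1a-3p in DYT1KI crush (1.07 with DESeq2 size factors, 1.26 with upper quartiles, 1.07 with DESeq2) and DYT1KI naive mice (1.03 with upper quartiles), cerebellum against cortex for miR-1a-3p in WT naive mice (1.08, 1.12 and 1.08 likewise), and striatum against cortex for miR-133a-3p/miR-133b-3p in DYT1KI crush mice (-1.08 with upper quartiles). Muscle miRNAs called in the pairwise tests and interaction, 0 at first, came to 2 in cortex with DESeq2, 3 with the replicate block, 3 with the range term, 1 with only the groups compared and 1 in replicates 1 to 3, where cerebellum also gave 1.

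Leaving out single libraries gave 0.47 to 0.84 (miR-206-3p) and -0.96 to -0.74 (miR-133a-3p/miR-133b-3p) for injury in cortex, -0.033 to 0.10 (miR-1a-3p) for genotype in cortex, and 0 to 2 pairwise calls there. In striatum injury gave -0.066 to 0.055 (miR-206-3p) and -0.019 to 0.065 (miR-1a-3p), and genotype -0.10 to 0.020 and -0.040 to 0.017. In cerebellum genotype gave 0.51 to 0.65 (miR-206-3p) and -0.19 to 0.042 (miR-1a-3p), and injury -0.18 to 0.061 (miR-1a-3p). Between tissues, cerebellum against striatum gave 0.72 to 1.05 (miR-1a-3p) and 0.998 to 1.40 (miR-133a-3p/miR-133b-3p) in DYT1KI crush and 0.87 to 1.30 (miR-1a-3p) in WT naive mice. Striatum against cortex gave -1.04 to -0.59 (miR-133a-3p/miR-133b-3p) in DYT1KI crush mice. Cerebellum against cortex gave -0.012 to 0.35 (miR-133a-3p/miR-133b-3p) in DYT1KI naive, 0.89 to 1.37 (miR-133a-3p/miR-133b-3p) in WT crush and 0.65 to 1.12 (miR-1a-3p) in WT naive mice.

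Counts over all miRNAs moved too. The injury effect of cortex minus striatum called 11 with limma, and 21 without cortex of DYT1KI crush replicate 1. Injury in cortex called 164, 240 with the block, 242 with the replicate range as a term, and 25 to 220 without a single library. It called 25, 67 and 106 without DYT1KI crush replicates 4, 5 and 6, 72 and 58 without DYT1KI naive replicates 2 and 3, 107, 97 and 93 without WT crush replicates 1, 4 and 6, and 99 without WT naive replicate 2. Genotype in cerebellum called 28, against 68 with DESeq2, 89 with the block, 74 with the range term, 0 with no filter (193 of 921 at an unadjusted p under 0.05), and 0 in replicates 1 to 3 (147) or 4 to 6 (81). It called 51, 0, 0 and 43 without DYT1KI crush replicates 1, 2, 5 and 6, 70, 0 and 0 without DYT1KI naive replicates 2, 4 and 5, 11, 0, 12 and 45 without WT crush replicates 1, 2, 3 and 5, and 9, 9 and 17 without WT naive replicates 1, 2 and 4.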
